A study of Homo sapiens with 8 samples.

Results

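The non-targeting sgRNAs of the EPIKOL screen were examined as the internal controls of the experiment. They were chosen as all sgRNAs that the deposited tables assign to the entry NonTargetingControl, which gave 80 of 7856 sgRNAs, or 1.02% of the library, with the identifiers epikol_v2_7791 to epikol_v2_7870. The remaining 7776 sgRNAs name 780 genes, mainly chromatin regulators and some positive controls, and are called the other sgRNAs here. The screen asked which knockouts changed the abundance of Taxol-resistant breast cancer cells under Taxol, a drug that stabilizes microtubules and blocks mitosis. All groups were T1-160 cells, a Taxol-resistant derivative of the triple-negative line SUM159PT, which carried Cas9 and the pooled lentiviral library at 1000-fold representation and were selected with 5 µg/ml puromycin and 20 µM verapamil for 4 days. The Taxol group (3 libraries) was then grown in 160 nM Taxol for 16 population doublings. The DMSO group (3 libraries) was grown in the vehicle for the same number of doublings, and the AP group (2 libraries, replicates 1 and 3) was collected directly after puromycin selection, before the cells were split. The first PCR used 13.2 µg of genomic DNA, set for 250-fold coverage of the library. The labels do not say whether replicates were infected or cultured separately, and p-values measure only the spread between these libraries, which may be technical.

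A non-targeting sgRNA is designed to match no site in the genome, so Cas9 loaded with it should make no cut. Cells with such an sgRNA carry the virus, the resistance marker and the nuclease but no knockout, and they stand for unedited growth in the pool. Their abundance still moves when few cells carry each sgRNA, because some clones are lost and others expand, and this drift sets a floor for reading the fold change of any single sgRNA. An sgRNA against a gene also causes a DNA break, which a non-targeting sgRNA does not, so the 2 kinds differ in more than the loss of the gene.

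Every non-targeting sgRNA was detected in every library. The lowest had 140, 28 and 43 reads in Taxol 1, 2 and 3, 84, 146 and 50 reads in DMSO 1, 2 and 3, and 127 and 119 reads in AP 1 and AP 3. Among the other sgRNAs, 1 had no reads in each library. Read numbers were recovered from the fixed step between the normalized values, and library totals ranged from 2045986 reads in Taxol 2 to 11771399 reads in Taxol 1. Counting error at the median non-targeting sgRNA corresponded to an SD of 0.049 to 0.092 on the log2 scale, far below the SD of 0.75 to 1.44 between non-targeting sgRNAs of a library. These are PCR reads without molecular identifiers, so this error and the intervals below cover counting only.

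The non-targeting sgRNAs held more than their share of the sgRNA list in 6 of 8 libraries. They took 0.937% of reads in Taxol 1 (Wilson 95% interval 0.932% to 0.943%), 1.23% in Taxol 2 (1.21% to 1.24%) and 1.41% in Taxol 3 (1.39% to 1.42%). In the DMSO libraries they took 1.15% (1.14% to 1.16%), 1.32% (1.32% to 1.33%) and 1.19% (1.18% to 1.20%) of reads. The AP libraries had the lowest share beside Taxol 1, with 0.971% in AP 1 (0.964% to 0.978%) and 1.10% in AP 3 (1.09% to 1.11%). The groups overlapped in this measure. In Taxol 1 the 10 most abundant of the other sgRNAs held 10.6% of the library, against 6.23% in Taxol 2, 8.91% in Taxol 3, at most 2.80% in any DMSO library and 1.53% and 2.73% in AP 1 and AP 3. By mean level, the non-targeting sgRNAs of Taxol 1 stood at 2.43 times and the other sgRNAs at 2.65 times the library median.

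The level of the typical non-targeting sgRNA was then set against the median sgRNA of the same library, a ratio that does not depend on scaling and is called relative abundance here. The median non-targeting sgRNA stood at 1.52, 1.42 and 1.54 times the library median in Taxol 1, 2 and 3. It stood at 1.41, 1.13 and 1.28 times in DMSO 1, 2 and 3, and at 0.925 and 1.20 times in AP 1 and AP 3. Thus all 3 Taxol libraries lay above all DMSO and AP libraries, while AP 3 lay above DMSO 2. In numbers of sgRNAs, 54, 55 and 52 of 80 were above the library median in the Taxol libraries, 54, 47 and 52 in the DMSO libraries and 38 and 53 in the AP libraries.

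On the log2 scale, with a pseudocount of 1, the median of the non-targeting sgRNAs minus that of the other sgRNAs gave 1 value per library. This shift was 0.60, 0.51 and 0.63 in the Taxol libraries, 0.49, 0.18 and 0.36 in the DMSO libraries, and -0.11 and 0.26 in the AP libraries. The mean shift was 0.58 ± 0.06 in Taxol and 0.35 ± 0.16 in DMSO (SD, n = 3 each), a difference of 0.24. The 2 groups did not overlap, and the two-sided exact permutation test over libraries gave p = 0.1, the smallest value that 3 against 3 libraries allow (0.3 after Benjamini-Hochberg adjustment over the 6 tests of shift and spread). Without DMSO 2 the difference was 0.16, and with means in place of medians it was 0.11. The design could not reach a p under 0.05 in this or the next 2 comparisons.

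The shift in DMSO differed from that in AP by less than the gap between the 2 AP libraries. It averaged 0.35 ± 0.16 in DMSO (SD, n = 3) and 0.07 ± 0.27 in AP (SD, n = 2), a difference of 0.27 with overlapping libraries (two-sided exact permutation test, p = 0.4, adjusted 0.48). Without AP 1 this difference was 0.08, and without AP 3 it was 0.46. Between Taxol and AP the difference was 0.51, with no overlap and an exact permutation p = 0.2 (adjusted 0.3), the smallest that 3 against 2 libraries allow. Without AP 1 it was 0.32. The 2 comparisons with AP share the AP libraries, and the comparisons of Taxol with DMSO and of DMSO with AP share the DMSO libraries, so they are not independent of each other.

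Fewer non-targeting than other sgRNAs, as a share, lay at the low end of each library. Below 0.25 times the library median lay 1 non-targeting sgRNA in each Taxol library, or 1.25%, against 10.6%, 5.29% and 8.71% of the other sgRNAs in Taxol 1, 2 and 3. In DMSO 1, 2 and 3 there were 4, 1 and 2 of them, against 11.3%, 9.53% and 10.1% of the other sgRNAs. AP 1 had 4 and AP 3 had 0, beside 7.15% and 4.58% of the other sgRNAs. The highest share of the controls, 4 of 80, was 5%. No test was made over sgRNAs, which share their library.

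The upper end also held non-targeting sgRNAs. More than 4 times the library median was reached by 15, 7 and 17 of 80 in Taxol 1, 2 and 3, or 18.8%, 8.75% and 21.3%, against 13.9%, 4.58% and 9.20% of the other sgRNAs. In DMSO 1, 2 and 3 there were 2, 14 and 4, or 2.5%, 17.5% and 5%, against 3.64%, 12.3% and 3.70% of the other sgRNAs. AP 1 had 0 and AP 3 had 1. DMSO 2 was thus nearer to Taxol 1 and Taxol 3 than to the other DMSO libraries, and Taxol 2 nearer to DMSO 3. Over the Taxol and DMSO libraries, 37 of the 80 passed this level at least once, 20 of them in 1 library only, and none in all 6. The same count was not made over the other sgRNAs, so it does not set the controls apart.

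The spread of the controls within a library followed the same pattern. The SD of log2 values over the 80 non-targeting sgRNAs was 1.37, 1.03 and 1.41 in the Taxol libraries, 1.00, 1.44 and 1.06 in the DMSO libraries, and 0.98 and 0.75 in the AP libraries. In each library it was below the SD of the other sgRNAs, which was 1.75, 1.23 and 1.5 in Taxol, 1.41, 1.57 and 1.38 in DMSO, and 1.17 and 1.04 in AP. The mean SD was 1.27 ± 0.21 in Taxol and 1.17 ± 0.24 in DMSO (SD, n = 3 each; difference 0.10, two-sided exact permutation test, p = 0.9). Against AP, at 0.87 ± 0.16 (SD, n = 2), it was higher by 0.40 in Taxol and by 0.30 in DMSO. Neither of these pairs of groups overlapped, and the exact permutation p was 0.2 in both (adjusted 0.3), the smallest possible.

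Single non-targeting sgRNAs led different libraries. epikol_v2_7809 had 20.8 times the library median in Taxol 1 but 2.58 and 2.88 times in Taxol 2 and Taxol 3, against 5.16, 2.76 and 2.92 times in DMSO 1, 2 and 3 and 2.77 and 4.11 times in AP 1 and AP 3. It was the most abundant non-targeting sgRNA of Taxol 1, DMSO 1 and AP 3 and was above the median in all 8 libraries. Its 11766 reads in Taxol 1 compare with 443 and 523 reads in Taxol 2 and Taxol 3.

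The leading control of DMSO 2, epikol_v2_7796, had 4.92, 5.11 and 6.36 times the median in Taxol 1, 2 and 3, against 2.41, 17.7 and 2.63 times in DMSO 1, 2 and 3 and 2.32 and 2.60 times in AP 1 and AP 3. It was above 2 times the median throughout, and DMSO 2 was the only DMSO library above the Taxol libraries. Taxol 3 was led by epikol_v2_7848, at 1.94, 1.25 and 14.1 times in Taxol 1, 2 and 3 and 1.497, 0.734 and 1.79 times in DMSO 1, 2 and 3, after 0.654 and 0.972 times in AP 1 and AP 3. Outside Taxol 3 it stayed within 2 times the median. Taxol 2 was led by epikol_v2_7865, at 10.4 times, and DMSO 3 by epikol_v2_7867, at 6.99 times. AP 1 was led by epikol_v2_7817, at only 3.07 times.

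Such single-library highs were found at similar shares among controls and knockouts. A highest library at least 4 times the next of its group was found for 9 non-targeting sgRNAs (11.3%) and 11.8% of the other sgRNAs in Taxol, and for 6 (7.5%) and 7.42% in DMSO. The 5 most abundant held 24.5%, 21.5% and 24.8% of the non-targeting total in the Taxol libraries, 15.2%, 28.8% and 20.0% in the DMSO libraries, and 15.7% and 14.6% in the AP libraries. A further pair was chosen after its values were seen. epikol_v2_7799 had 0.441, 0.779 and 11.8 times the median in Taxol 1, 2 and 3 and 1.09, 0.728 and 2.13 times in DMSO 1, 2 and 3, while epikol_v2_7804 had 0.586, 3.48 and 0.617 times in Taxol and 0.805, 6.07 and 0.533 times in DMSO.

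Some of these highs were shared by Taxol and DMSO libraries, both of the same and of different replicate numbers. Above 4 times the median in both libraries were 1, 4 and 3 controls for Taxol and DMSO libraries 1, 2 and 3. There were also 6 for Taxol 3 and DMSO 2, 3 for Taxol 1 and DMSO 2, and 0 or 1 for the remaining pairs. Taxol 3 and DMSO 2 held 17 and 14 controls at this level and DMSO 1 held 2, and the joint counts depend on these numbers. They were not computed over the other sgRNAs, so they describe the controls only and do not set same-numbered libraries apart. epikol_v2_7804 was highest in replicate 2 of both the Taxol and the DMSO group, but at 3.48 times in Taxol 2 it is not in these counts. epikol_v2_7841 had 0.687, 0.965 and 6.38 times the median in Taxol 1, 2 and 3, against 1.33, 2.58 and 6.67 times in DMSO 1, 2 and 3, and 0.506 and 0.676 times in AP 1 and AP 3. epikol_v2_7867 had 3.78, 1.61 and 10.9 times in Taxol and 0.931, 0.866 and 6.99 times in DMSO. Both were highest in replicate 3 of each group. Over the 80 sgRNAs, the deviations from the group mean correlated at 0.13, 0.32 and 0.25 between same-numbered Taxol and DMSO libraries 1, 2 and 3, and at -0.33 to 0.04 between libraries of different numbers. Deviations within a group sum to 0, so positive values at the same number force lower values at different numbers. The contrast between them is therefore not independent evidence of pairing. These correlations are a description over sgRNAs that share the libraries.

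Between whole libraries the controls had lower correlations than the knockouts, but not a consistently larger difference. The correlation of log2 values over the 80 non-targeting sgRNAs was 0.34 to 0.72 and was below that over the other sgRNAs, 0.55 to 0.80, in all 28 pairs of libraries. A narrower range of levels lowers a correlation, and the SD of the difference between 2 libraries was lower in non-targeting than in other sgRNAs in 14 of the 28 pairs. Above the library median in all 8 libraries were 18 non-targeting sgRNAs (22.5%) and 20.3% of the other sgRNAs. Below it in all 8 were 4 (5%) and 15.5%.

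No non-targeting sgRNA passed the threshold in any of the 3 comparisons by limma with Benjamini-Hochberg adjustment over all 7856 sgRNAs. The number called was 0 of 80 each time, and the background was 0% of all sgRNAs for Taxol relative to DMSO, 0% for DMSO relative to AP and 0% for Taxol relative to AP. With the replicate number as a block, 1 control passed in DMSO relative to AP, epikol_v2_7841, with an adjusted limma p of 0.030. Of all 7856 sgRNAs, 17 higher and 1 lower passed there. That fit rests on the 2 pairs of replicates 1 and 3, since DMSO 2 has no AP partner. Without DMSO 2 and without the block, the adjusted limma p of epikol_v2_7841 was 0.50. At an unadjusted p under 0.05, 2 were higher and 0 lower in Taxol relative to DMSO, beside 2.04% and 1.55% of all sgRNAs. In DMSO relative to AP 2 were higher and 2 lower, beside 3.16% and 3.63%. For Taxol relative to AP 2 were higher and 1 lower, beside 2.2% and 3.9%. These shares of the controls, 1.25% to 2.5% where any was found, lay near or below the background with all libraries, but the shares of higher controls did not stay there when 1 library was left out. Without Taxol 2, 7 controls (8.75%) were higher in Taxol relative to DMSO, beside 3.56% of all sgRNAs, and without Taxol 3 it was 0, beside 3.07%. For DMSO relative to AP the number was 9 (11.3%) without DMSO 3, beside 5.88% of all sgRNAs, and 1 (1.25%) without AP 1, beside 0.242%. For Taxol relative to AP it was 9 (11.3%) without Taxol 2, beside 4.68%, and 0 without AP 1, beside 0.102%.

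The libraries of the groups did not overlap for 5 higher and 1 lower non-targeting sgRNA in Taxol relative to DMSO, against 4.76% and 4.26% of all sgRNAs. For DMSO relative to AP they did not overlap for 8 higher and 4 lower, against 11.2% and 12% of all sgRNAs. For Taxol relative to AP this held for 15 higher and 2 lower, against 12.4% and 13.6%.

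The fold changes of the controls were centred above those of the other sgRNAs against AP. In Taxol relative to DMSO the median log2 fold change was 0.11 over non-targeting and 0.04 over other sgRNAs, with 44 of 80 and 52.1% above 0. In DMSO relative to AP the medians were 0.43 and 0.13, with 62 of 80 and 56.5% above 0. The medians in Taxol relative to AP were 0.68 and 0.14, with 65 of 80 and 57.5% above 0. Over the libraries left out 1 at a time, the non-targeting median was 0.014 (without Taxol 1) to 0.21 (without DMSO 2) in Taxol relative to DMSO. It was as low as 0.27 (without DMSO 2) and 0.28 (without AP 1) in DMSO relative to AP, and 0.44 (without AP 1) in Taxol relative to AP.

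The sign of the controls' own median depended on the scaling in Taxol relative to DMSO and in Taxol relative to AP, but not in DMSO relative to AP. The deposited scaling brought the middle ratio of all sgRNAs in the table of Taxol and DMSO to 0.921 to 0.922 of the geometric mean in each of the 6 libraries, whereas that of the non-targeting sgRNAs ranged from 0.864 to 0.985, so the table was levelled on all sgRNAs and not on the controls. Scaled to the same total, the non-targeting median was -0.20 in Taxol relative to DMSO, 0.04 in DMSO relative to AP and -0.056 in Taxol relative to AP. The other sgRNAs were then at -0.28, -0.26 and -0.59. Levelled on the non-targeting median of each library, the median fold change of the controls was -0.060, 0.12 and 0.16 in the same order. The non-targeting minus other difference of the medians was 0.08, 0.30 and 0.54 with the deposited scaling, and a scaling, which moves all sgRNAs of a library alike, hardly changes it.

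The choice of zero point moved the direction of the nominal calls over the whole library. At an unadjusted p under 0.05, 160 sgRNAs were higher and 122 lower in Taxol relative to DMSO. Levelled on the non-targeting median, 87 were higher and 190 lower, levelled on the median of all sgRNAs 194 and 88, and scaled to the same total 80 and 278. In DMSO relative to AP the counts were 248 higher and 285 lower as deposited, 55 and 471 on the non-targeting median, and 67 and 564 on the total. The counts in Taxol relative to AP were 173 and 306 as deposited, 44 and 816 on the non-targeting median, and 44 and 824 on the total. No sgRNA passed the adjusted threshold of limma under any of these scalings. Of 779 genes with at least 3 sgRNAs, the gene mean lay below the non-targeting mean for 517, 632 and 683 in Taxol relative to DMSO, DMSO relative to AP and Taxol relative to AP, and below 0 for 350, 286 and 252.

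The controls give the width of change that occurred without a knockout. The SD of the non-targeting fold changes was 0.67, 0.66 and 0.66 on the log2 scale in Taxol relative to DMSO, DMSO relative to AP and Taxol relative to AP, and that of the other sgRNAs was 0.70, 0.77 and 0.80. The 5th and 95th percentiles of the controls were -0.88 and 1.28 in Taxol relative to DMSO, and 8.94% of the other sgRNAs lay below and 4.17% above them. For DMSO relative to AP they were -0.73 and 1.22, with 13.7% below and 6.03% above. For Taxol relative to AP they were -0.38 and 1.57, with 23.9% below and 4.58% above. More than 2-fold higher, a log2 fold change above 1, were 12, 12 and 19 of the 80 controls in the 3 comparisons, or 15%, 15% and 23.8%, against 8.22%, 10.7% and 14.8% of the other sgRNAs. More than 2-fold lower were 3, 2 and 1, or 3.75%, 2.5% and 1.25%, against 6.19%, 8.62% and 6.56% of the other sgRNAs.

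The highest fold change in Taxol relative to DMSO was that of epikol_v2_7794, with 6.06, 1.51 and 3.78 times the library median in Taxol 1, 2 and 3, against 0.848, 1.07 and 1.18 times in DMSO 1, 2 and 3. The groups did not overlap. Its log2 fold change was 1.60 ± 0.67 (SE), with an unadjusted limma p of 0.032 and an adjusted p of 0.97. The next highest were epikol_v2_7868 (1.42), epikol_v2_7856 (1.40), epikol_v2_7848 (1.31) and epikol_v2_7864 (1.28). epikol_v2_7868 was high in Taxol 1 only, with 6.49 times the median there and 0.616 and 0.964 times in Taxol 2 and Taxol 3, against 1.00, 0.554 and 0.317 times in DMSO. epikol_v2_7856 had 1.07, 4.23 and 7.29 times in Taxol and 0.579, 2.62 and 1.02 times in DMSO. The log2 fold change of epikol_v2_7868 was 0.39 without Taxol 1, and without Taxol 3 that of epikol_v2_7848 was 0.24 and that of epikol_v2_7856 was 0.81.

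The lowest values in Taxol relative to DMSO were those of epikol_v2_7846 (-1.12), epikol_v2_7829 (-1.12), epikol_v2_7855 (-1.05), epikol_v2_7832 (-0.90) and epikol_v2_7841 (-0.87). epikol_v2_7829 had 0.837, 1.60 and 1.14 times the median in Taxol 1, 2 and 3, against 1.14, 13.2 and 0.918 times in DMSO 1, 2 and 3. The groups overlapped, and without DMSO 2 its log2 fold change was 0.080. epikol_v2_7846 had 0.295, 0.384 and 0.391 times in Taxol and 0.291, 0.829 and 1.67 times in DMSO, again with overlap, and a log2 fold change of -0.53 without DMSO 3. Without DMSO 3, epikol_v2_7841 was at -0.25. epikol_v2_7832 had 0.300, 0.442 and 0.562 times in Taxol and 0.991, 0.833 and 0.516 times in DMSO.

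Against AP, epikol_v2_7841 had the highest log2 fold change in DMSO, 2.32 ± 0.69 (SE), with an unadjusted limma p of 0.0037 and an adjusted p of 0.71. With the replicate block, which leaves only 2 pairs, the adjusted limma p was 0.030. All 3 DMSO libraries lay above both AP libraries. epikol_v2_7840, at 0.915, 3.28 and 1.73 times the median in DMSO 1, 2 and 3 and 0.263 and 1.02 times in AP 1 and AP 3, followed with 1.78 (0.82 without AP 1), and epikol_v2_7829 with 1.58 (0.34 without DMSO 2). In Taxol relative to AP the highest were epikol_v2_7848 (2.05), epikol_v2_7830 (1.91) and epikol_v2_7867 (1.88). epikol_v2_7830 had 4.08, 1.62 and 2.73 times the median in Taxol 1, 2 and 3, against 0.413 and 1.20 times in AP 1 and AP 3, with no overlap. Its log2 fold change was 1.15 without AP 1, and without Taxol 3 those of epikol_v2_7848 and epikol_v2_7867 were 0.97 and 1.15.

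A control that lost abundance after the AP collection was epikol_v2_7834. It had 0.247, 0.419 and 0.314 times the median in Taxol 1, 2 and 3, and 0.182, 0.319 and 0.805 times in DMSO 1, 2 and 3, against 1.57 and 1.03 times in AP 1 and AP 3. All 6 later libraries lay below both AP libraries. Its log2 fold change was -1.97 ± 0.50 in Taxol relative to AP (SE), with an unadjusted limma p of 0.0037 and an adjusted p of 0.74. In DMSO relative to AP it was -1.77 ± 0.73 (SE), with an unadjusted limma p of 0.026 and an adjusted p of 0.72, and both share the AP libraries. It was the lowest control in both. In Taxol relative to DMSO it stood at -0.24, and at 0.34 without DMSO 3.

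The other control under an unadjusted p of 0.05 in 2 comparisons was epikol_v2_7843. It had 0.441, 0.686 and 0.540 times the median in Taxol, against 0.234, 0.318 and 0.142 times in DMSO and 0.692 and 0.622 times in AP 1 and AP 3. The DMSO libraries lay below all the rest. Its log2 fold change was 1.24 in Taxol relative to DMSO and -1.53 in DMSO relative to AP, which share the DMSO libraries, and -0.24 in Taxol relative to AP. epikol_v2_7842, at 0.325, 0.424 and 0.331 times in Taxol and 0.245, 0.414 and 0.465 times in DMSO, against 0.814 and 0.648 times in AP, completed the 3 lowest of both comparisons with AP beside epikol_v2_7834, with epikol_v2_7843 in DMSO and epikol_v2_7832 (-0.44, and -0.20 without AP 1) in Taxol.

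The median change did not follow the order of the levels in AP. The 27 controls with the lowest AP levels, 0.256 to 0.873 times the library median, had a median log2 fold change of 0.80 in Taxol relative to AP, the middle 26 had 0.47 and the 27 highest, 1.30 to 3.44 times, had 0.68. In DMSO relative to AP the values were 0.44, 0.31 and 0.52. The spread was smaller in the most abundant group, with an SD of 0.54 in Taxol relative to DMSO. The SD was 0.74 in the middle group and 0.73 in the least abundant. The AP level enters the comparisons with AP, so these values are a description. The highest AP means were those of epikol_v2_7809 (3.44), epikol_v2_7825 (3.14) and epikol_v2_7817 (2.60 times), and the lowest those of epikol_v2_7831 (0.256), epikol_v2_7846 (0.305) and epikol_v2_7851 (0.332 times).

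Few controls were constant. The range of log2 values over the Taxol and DMSO libraries had a median of 2.16 over the non-targeting and 2.05 over the other sgRNAs, and reached 4.73. The 3 with the smallest range were epikol_v2_7795 (0.70), epikol_v2_7825 (0.76) and epikol_v2_7810 (0.79). epikol_v2_7795 had 1.26, 1.26 and 1.17 times the median in Taxol and 1.76, 1.17 and 1.24 times in DMSO, and epikol_v2_7825 had 5.65, 3.77 and 5.79 times in Taxol and 3.19, 3.86 and 4.07 times in DMSO. In AP 1 and AP 3 epikol_v2_7795 had 0.351 and 1.39 times, so its constancy did not extend to the AP libraries. These were chosen for their small range, which is therefore no finding.

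Set beside sgRNAs against genes that most dividing cells need, the controls stood higher after culture than in AP. The essential list held 350 sgRNAs against 35 genes, mainly of the ribosome, the RNA exosome and the spliceosome. Its rule on gene symbols also took in the signalling kinases RPS6KA3, RPS6KA4 and RPS6KA5, which are not ribosomal proteins. The median non-targeting sgRNA was 3.66, 2.57 and 3.31 times as abundant as the median essential-gene sgRNA in Taxol 1, 2 and 3, 3.03, 2.30 and 2.69 times in DMSO 1, 2 and 3, and 1.16 and 1.74 times in AP 1 and AP 3. All 6 later libraries lay above both AP libraries, and Taxol and DMSO overlapped. No test was made.

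The median log2 fold change of the essential list was -0.36 in Taxol relative to AP and -0.41 in DMSO relative to AP (-0.48 and -0.49 without the 3 kinases), against 0.68 and 0.43 over the non-targeting sgRNAs. Below the 5th percentile of the controls lay 172 of 350 (49.1%) in Taxol relative to AP, beside 23.9% of all the other sgRNAs. In DMSO relative to AP it was 129 (36.9%), beside 13.7%. In Taxol relative to DMSO the list had a median of 0.08, close to 0.11 for the controls, and 28 of 350 (8%) lay below that percentile, beside 8.94% of all the other sgRNAs.

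ABCB1, the efflux pump that exports Taxol and a positive control of this screen, was read against the same range. Its 10 sgRNAs had a median log2 fold change of -0.86 in Taxol relative to DMSO. There 9 lay below the non-targeting median, 4 below the 5th percentile and 3 below the lowest of the 80 controls. Of the other sgRNAs, 54.2%, 8.94% and 4.09% lay below these 3 lines. The ABCB1 median in DMSO relative to AP was 0.57, and 0 of 10 lay below the 5th percentile, beside 13.7% of the other sgRNAs. Relative to AP, in Taxol, it was -0.44, with 9 of 10 below the non-targeting median, beside 74.97% of the other sgRNAs. Below the 5th percentile lay 6 of 10 in that comparison, beside 23.9% of the other sgRNAs.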

How the data were processed

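The deposited tables, 1 per comparison, hold sgRNA counts that the authors had already normalized, each cell joining the values of a group's libraries. The submitters' processing notes name MAGeCK 0.5.8, and options for trimming, mapping and normalization are not given in the sources used here. The tables also hold the authors' own fold changes, scores and p-values, which were not used. Within a cell, values were taken to follow the replicate order 1, 2, 3, and the second AP value, 2 value columns over the tables, was not used. Sequences of the sgRNAs were not analysed here.

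Reads were recovered from the fixed step of each library (at least 98.7% of values whole within 0.1 read) and used for shares only; since the cells hold joined values, no count model was fitted. Tests stayed within a table. Each sgRNA was tested on log2(value + 1), a scale that understates changes of low values, with limma 3.58.1 (lmFit, eBayes with trend; R 4.3.3) and Benjamini-Hochberg adjustment at 0.05. Library values were compared by two-sided exact permutation tests (scipy 1.17.1, n = 3, 3 and 2 libraries). Both were tested on simulated data. Deviations from group means over all sgRNAs correlated at 0.17, 0.13 and 0.21 between same-numbered Taxol and DMSO libraries, which passes the bar for pairing there, from the data and on the assumed order; the reported tests were unpaired, and the replicate block was run as an alternative.

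Single sgRNAs were named as the 5 highest and lowest fold changes in Taxol relative to DMSO, the 3 highest and lowest in the other comparisons and in AP level, those with an unadjusted p under 0.05 in 2 comparisons, the most abundant of each library and the 3 with the smallest range, 25 in all. epikol_v2_7799 and epikol_v2_7804 fell outside these rules and were added after their values were seen. Members, lists and rules were chosen with earlier results of these data known. Alternatives were pseudocounts of 0.5 and 10, a filter at a mean value of 30, other scalings, means or interquartile ranges, no variance trend, a replicate block and leaving out each library. Leaving essential-gene sgRNAs out of the other sgRNAs, and the 3 kinases out of the essential list, were added after seeing the data.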

Additional observations from a re-analysis of the deposited data

How the results depend on the processing

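The differences between groups in the shift and in the spread of the non-targeting sgRNAs kept their direction in every alternative run. Leaving out 1 library gave shift differences of 0.16 to 0.31 in Taxol relative to DMSO, 0.08 to 0.46 in DMSO relative to AP and 0.32 to 0.70 in Taxol relative to AP, and spread differences of 0.02 to 0.24, 0.17 to 0.42 and 0.29 to 0.52. With the replicate block, the paired shift difference was 0.24 in Taxol relative to DMSO (exact permutation p = 0.25, the smallest that 3 pairs allow), 0.35 in DMSO relative to AP and 0.54 in Taxol relative to AP. Among the non-targeting sgRNAs, only the replicate block brought an adjusted limma call, 1 in DMSO relative to AP (epikol_v2_7841, log2 fold change 2.38, adjusted p = 0.030), among 17 higher and 1 lower of all sgRNAs (3 others were lower without AP replicate 3); the 2 AP numbers did not pair with the other libraries in the data. With the block, 8 (10%) were higher at an unadjusted p under 0.05 in DMSO relative to AP and 12 (15%) in Taxol relative to AP, beside 5.14% and 6.12% of all sgRNAs. Scaled to the same total or to the non-targeting median, 0, 1 (1.25%) and 0 controls were higher in the 3 comparisons. Of all sgRNAs, 0.56% to 1.11% were higher under these scalings. In Taxol relative to AP 2 controls (2.5%) were lower, beside 10.5% (same total) and 10.4% (non-targeting median) of all sgRNAs. Leaving out 1 library gave 0 to 7, 1 to 9 and 0 to 9 higher, and 0 to 1, 0 to 2 and 1 to 1 lower; where 7, 9 and 9 were higher (8.75%, 11.3% and 11.3%), so were 3.56%, 5.88% and 4.68% of all sgRNAs. The median log2 fold change of the non-targeting sgRNAs turned to -0.20 (same total) and -0.060 (non-targeting median) in Taxol relative to DMSO and to -0.056 (same total) in Taxol relative to AP. epikol_v2_7829 turned to 0.080 without DMSO replicate 2 (-1.81 to 0.080 over the libraries left out) and epikol_v2_7834 to 0.34 without DMSO replicate 3 (-0.70 to 0.34), both in Taxol relative to DMSO. The cause was not tested. Counting error was computed at the median non-targeting sgRNA only, not for those with few reads. Groups of 2 or 3 libraries limit every test.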
